A study of Mus musculus with 14 samples.

Results

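The genes of glycolysis and the pentose phosphate pathway were followed in CD4+ T-cells of mice with and without the sanroque allele of Roquin. There were 33 member genes, chosen by name: 4 glucose and lactate transporters, 9 enzymes from glucose to the triose phosphates, 5 from the triose phosphates to pyruvate, 2 lactate dehydrogenase subunits, 2 bifunctional enzymes that set phosphofructokinase activity, 3 genes of pyruvate entry into the mitochondrion, 5 pentose phosphate enzymes and the 3 regulators Myc, Hif1a and Mtor. The arrays carried 85 probes bearing one of these 33 names, out of 56605 probes with 36870 names in all. Of the 85 probes, 79 were bright enough to test, and each of the 33 genes had at least 1 such probe.

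Total RNA of CD4+ T-cells was hybridised with 1 dye to 14 arrays, 7 labelled Roquin san/+ and 7 labelled wild-type. Roquin san/+ mice are heterozygous for the sanroque point mutation, which they carry in all cells and not in T-cells alone, and Roquin is an RNA-binding ubiquitin ligase that destabilises mRNAs of T-cell activation. Neither group carried a transgene or was given an agent by the labels, and the age, sex and organ of the mice, and whether a tumour was present, were not given in the sources used here. The 7 arrays of a group had letters A to G, and the p-values measure only the spread between these arrays.

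Glycolysis splits glucose into pyruvate, which is either reduced to lactate and exported or passed into the mitochondrion through pyruvate dehydrogenase. The pentose phosphate pathway branches off at glucose 6-phosphate and yields NADPH and the ribose of nucleotides. Resting CD4+ T-cells run both pathways at a low rate and raise them on activation, with mTOR signalling and the transcription factors Myc and Hif1a (HIF-1 alpha) as well-known drivers of that rise.

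Some arrays stood apart from the others before any comparison of genotypes. The spots of Roquin san/+ G and wild-type E were displaced by 2 grid rows from their probe names and were moved back. Between 21.4% and 23.6% of the spots of these 2 arrays were well above background, compared with 55.4% to 76.5% on the other 12. The background calls of these 2 arrays rest on misplaced control spots, so they are not on the same footing as those of the other 12. This limit holds wherever a probe is called well above background, or not, on a displaced array or on every array. Slide 1 held 5 Roquin san/+ and 2 wild-type arrays, and slide 2 held 2 and 5. The T-cell genes Cd3e, Cd3d, Cd3g, Cd4, Cd28, Lck, Cd5 and Cd2 were measured on every array. Roquin san/+ F was lowest for 4 of these 8 genes and highest for 7 of 8 B-cell, 9 of 10 myeloid, 4 of 4 natural killer cell, 3 of 3 platelet and 5 of 7 erythroid genes. The CD8 gene Cd8b1 stood at 0.99 on this array and at -2.15 or lower on the other 13. Its mean level over the B-cell genes was 0.10, compared with a median of -4.33 in its group and a highest wild-type value of -1.78. All levels are log2 signals relative to the array's 75th percentile, so 1 unit is 2-fold, and a level of one probe cannot be set against that of another. In bulk RNA, fewer cells of a type and less RNA per cell cannot be told apart.

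No member differed between the genotypes after adjustment. By limma with Benjamini-Hochberg adjustment over all 32831 probes tested, the adjusted p of every member was 0.88 or more, and 0 of 33 members and 0% of all probes passed. At an unadjusted p under 0.05 there were 2 members, Aldoa on the higher side in Roquin san/+ and Myc on the lower side, which is 6.06% of the members beside 3.23% of all probes tested and 2.13% of those well above background on every array. Among all probes that share was 2.95% for higher values and 0.28% for lower values. There was 1 such member with slide as a block, beside 1.37% of all probes, and likewise 1 without both displaced arrays (6.79%), on slide 1 alone (9.14%) and on slide 2 alone (1.81%). There were 2 without Roquin san/+ F, beside 2.18%. The groups overlapped for each of the 33 members, and they did not overlap for 0.0396% of all probes.

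The members as a list sat close to the array as a whole. Their median difference, Roquin san/+ minus wild-type, was 0.06 on the log2 scale, beside 0.10 over all probes tested and -0.01 over the 10320 probes well above background on every array. There were 21 members above 0, 63.6% of them, beside 63.4% of all probes tested and 47.1% of those well above background on every array. The sign of these medians depended on the scaling. With the 75th percentile taken over all probes the median of all probes moved to -0.07 and that of the members to -0.11, with 11 of 33 members above 0. After quantile normalization the medians were -0.08 and 0.04, on the authors' log2 values -0.07 and 0.10, and after normexp background correction 0.29 and 0.14. Relative to all probes the members therefore lay between 0.15 lower and 0.17 higher across these 5 scalings.

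Large differences in the mean could be bounded for most members on the probe read for each gene. The 95% interval of the difference lay within 2-fold either way for 26 of 33 members, 78.8%, beside 56.9% of all probes and 85.8% of those well above background on every array. It lay within 1.5-fold either way for 12 members, 36.4%, beside 24.2% and 50.5%. The 7 members with wider intervals were Slc16a1, Slc16a3, Hk2, Pfkm, Aldoc, Hif1a and Mtor.

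**Figure D1:**
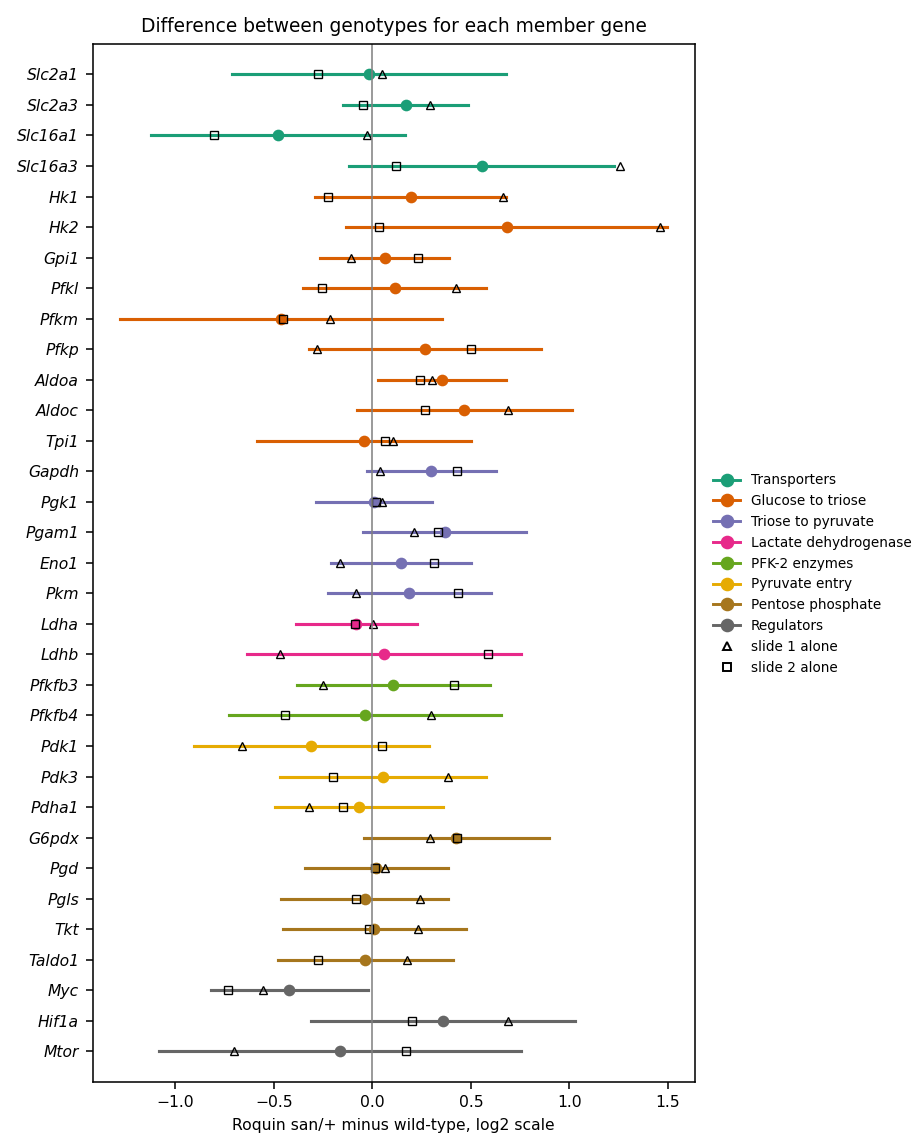
Difference between genotypes on the log2 scale (x axis) for each of the 33 members (y axis, coloured by role). Filled circles are the difference over 14 arrays and bars its 95% interval; open triangles and squares are the differences on slide 1 and slide 2 alone. The intervals of Aldoa and Myc leave out 0, and for 18 of the 33 members the slides lie on opposite sides of 0.

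The carriers at both ends of the pathway gave differences of either sign. Slc2a1, which encodes the glucose carrier GLUT1, differed by -0.02 (95% interval -0.71 to 0.68), and Slc2a3, which encodes GLUT3, by 0.17 (-0.15 to 0.49). Slc16a1 encodes the lactate carrier MCT1. Its levels ran from -2.59 through a median of -2.25 to -1.501 in Roquin san/+ and from -2.61 through -1.92 to -0.45 in wild-type, and the highest 2 wild-type arrays, C and A, lay above every Roquin san/+ array. The difference was -0.48 (SE 0.30, exact permutation p = 0.15), and it was -0.03 on slide 1, -0.80 on slide 2 and -0.27 without wild-type C. Slc16a3 encodes MCT4, the lactate exporter of highly glycolytic cells. Its levels ran from -4.08 through -3.74 to -2.25 in Roquin san/+ and from -4.99 through -3.94 to -3.49 in wild-type. The 2 highest arrays were Roquin san/+ F and G, and the other 5 Roquin san/+ arrays lay within the range of the wild-type arrays. The difference of 0.55 (SE 0.31, exact permutation p = 0.12) was 1.26 on slide 1, 0.12 on slide 2 and 0.34 without Roquin san/+ F. The probe was not well above background on 1 displaced array, and without both of them the difference was 0.54.

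Of the 9 enzymes between glucose and the triose phosphates, 7 had a difference above 0, 77.8% beside 63.4% of all probes tested. With the 75th percentile over all probes, Gpi1 and Pfkl also fell below 0, at -0.11 and -0.06. Aldoa had an unadjusted limma p under 0.05. Aldoa encodes aldolase A, which cuts fructose 1,6-bisphosphate into the triose phosphates. Its levels ran from 2.21 through 2.56 to 2.85 in Roquin san/+ and from 1.89 through 2.21 to 2.42 in wild-type. There were 5 Roquin san/+ arrays above the highest wild-type array, while Roquin san/+ C and E lay within the wild-type range. The difference was 0.35 (SE 0.15, 95% interval 0.03 to 0.68), a ratio of 1.28, with an unadjusted limma p of 0.035, an adjusted p of 0.88 and a two-sided exact permutation p of 0.014 over the arrays, unadjusted. It was 0.27 with slide as a block, 0.29 without the displaced arrays and 0.30 without Roquin san/+ F. It was 0.18 with the 75th percentile over all probes and 0.26 after normexp background correction. Under each of these settings the unadjusted limma p was above 0.05, at 0.41 and 0.21 for the last 2. Aldoc, the brain-type aldolase, differed by 0.47 (SE 0.26, exact permutation p = 0.090). Its levels ran from -4.20 through -3.72 to -3.06 in Roquin san/+ and from -4.97 through -4.20 to -3.34 in wild-type, and its 3 tested probes gave differences of 0.42 to 0.58. The probe was not well above background on 1 displaced array, and without both the difference was 0.46. Roquin san/+ F was the highest array for both aldolases and wild-type C the lowest.

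The hexokinases and phosphofructokinases varied widely within the groups, with SDs of 0.25 to 0.87. Hk2, the inducible hexokinase, had the largest difference of the 33 members, 0.68 (SE 0.38, exact permutation p = 0.12). Its levels ran from -6.14 through -5.08 to -3.41 in Roquin san/+ and from -6.45 through -5.54 to -4.80 in wild-type. Only Roquin san/+ F and C lay above the highest wild-type array. The probe was not well above background on the 2 displaced arrays, and the difference was 0.73 without them and 0.43 without Roquin san/+ F. It was 1.46 on slide 1 and 0.03 on slide 2. Hk1, the hexokinase that most cells use, differed by 0.19 (95% interval -0.29 to 0.68), with 0.66 on slide 1 and -0.22 on slide 2.

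Pfkm, the muscle subunit of phosphofructokinase, gave levels from -4.02 through -2.69 to -1.43 in Roquin san/+ and from -3.19 through -2.50 to -1.09 in wild-type. Roquin san/+ F was the lowest of the 14 arrays, and wild-type C, Roquin san/+ C and wild-type A were the highest. The difference was -0.46 (SE 0.38, exact permutation p = 0.27), and it was -0.26 without Roquin san/+ F and likewise -0.26 without wild-type C. The liver subunit Pfkl differed by 0.11 (-0.35 to 0.58) and the platelet subunit Pfkp by 0.27 (-0.32 to 0.85), with -0.28 on slide 1 and 0.50 on slide 2 for Pfkp. Without wild-type C, its lowest array, Pfkp differed by 0.05, and without Roquin san/+ G, its highest, by 0.17. Gpi1, which interconverts glucose and fructose 6-phosphate, differed by 0.06 (-0.26 to 0.39). Tpi1, which interconverts the triose phosphates, differed by -0.04 (-0.59 to 0.50).

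The 5 enzymes from the triose phosphates to pyruvate all had differences above 0, of 0.01 to 0.37, and the 95% interval of each held 0. Over all probes tested, 63.4% were above 0. The differences were 0.30 for Gapdh (-0.03 to 0.63), 0.01 for the phosphoglycerate kinase Pgk1 (-0.29 to 0.30), 0.37 for the phosphoglycerate mutase Pgam1 (-0.05 to 0.78), 0.14 for the enolase Eno1 (-0.21 to 0.50) and 0.19 for the pyruvate kinase Pkm (-0.22 to 0.60). For Gapdh and Pgam1 the displaced wild-type E array was the lowest of the 14 and the displaced Roquin san/+ G array the highest. Without both displaced arrays the differences of these genes were 0.18 and 0.19. With the 75th percentile over all probes Pgk1 and Eno1 were at -0.16 and -0.03. Pgk1 was among the steadiest members, with an SD of 0.13 over the 7 wild-type arrays. Several of these enzymes, Gapdh, Pgk1 and Eno1 among them, have processed pseudogenes whose transcripts a probe may share.

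The fate of pyruvate showed no difference at an unadjusted p under 0.05 either. Ldha, the lactate dehydrogenase subunit induced in activated T-cells, differed by -0.08 (95% interval -0.39 to 0.22), and Ldhb, the subunit of resting tissue, by 0.06 (-0.64 to 0.75). Ldhb was lowest on Roquin san/+ F at -3.45 and next lowest on wild-type C at -3.21, and the remaining arrays lay between -2.17 and -1.48. Of the bifunctional enzymes that make fructose 2,6-bisphosphate, Pfkfb3 differed by 0.11 (-0.38 to 0.60) and Pfkfb4 by -0.04 (-0.73 to 0.65). Pfkfb4 stood at -1.59 on Roquin san/+ F and between -4.08 and -3.52 on the other 6 Roquin san/+ arrays, beside -3.70 to -3.18 in wild-type. Without Roquin san/+ F its difference was -0.35, with an unadjusted limma p of 0.046, and without both displaced arrays, on 1 of which the probe was not well above background, it was 0.09. The pyruvate dehydrogenase kinases, which block pyruvate entry, differed by -0.31 for Pdk1 (-0.90 to 0.28) and 0.05 for Pdk3 (-0.47 to 0.58), and the dehydrogenase subunit Pdha1 by -0.07 (-0.49 to 0.36). The Pdk3 probe was not well above background on 1 displaced array, and its difference was -0.08 without both.

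Of the 5 pentose phosphate enzymes, 4 had intervals within 1.5-fold either way on the probe read for each gene. The exception was G6pdx, the entry enzyme of the pathway, which differed by 0.43 (95% interval -0.04 to 0.89). G6pdx was highest on Roquin san/+ F at -0.99 and lowest on the displaced wild-type E at -2.69, and the difference was 0.30 without the displaced arrays and 0.32 without Roquin san/+ F. The differences of the other 4 were 0.02 for the 6-phosphogluconate dehydrogenase Pgd, -0.04 for the lactonase Pgls, 0.01 for the transketolase Tkt and -0.04 for the transaldolase Taldo1. Other tested probes of these genes gave 0.69 (SE 0.49) for Pgd and 0.31 (SE 0.65) for Tkt. They gave 0.11 (SE 0.16) and 0.47 (SE 0.39) for Pgls, and -0.11 (SE 0.27) for Taldo1. Pgd, Pgls and Taldo1 were each highest on Roquin san/+ F.

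Among the regulators, Myc was lower in Roquin san/+ at an unadjusted p under 0.05 and did not pass the adjustment. The 2 Myc probes are shown because they gave different values, and no part of them is marked by capitals.
Myc, brighter probe, mm9 chr15:61821417-61821476, plus strand: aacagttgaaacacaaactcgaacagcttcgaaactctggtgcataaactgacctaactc
Myc, dimmer probe, mm9 chr15:61820925-61820984, plus strand: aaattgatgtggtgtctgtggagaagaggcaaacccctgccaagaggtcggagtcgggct
On the brighter probe the levels ran from -2.87 through -2.02 to -1.67 in Roquin san/+ and from -2.001 through -1.72 to -1.32 in wild-type. Roquin san/+ A, C, D and E lay below every wild-type array, and no Roquin san/+ array was as high as the wild-type F and G arrays or wild-type B. The last rank was narrow, with the displaced Roquin san/+ G at -1.666 beside -1.665 on wild-type B. The difference was -0.42 (SE 0.19, 95% interval -0.82 to -0.02), a wild-type level 1.34 times that of Roquin san/+, with an unadjusted limma p of 0.039, an adjusted p of 0.88 and an unadjusted exact permutation p of 0.013. It was -0.56 on slide 1, -0.73 on slide 2 and -0.64 with slide as a block, where it did not pass the adjustment over all probes either. It was -0.51 without the displaced arrays and -0.45 without Roquin san/+ F. The dimmer probe was well above background on 12 arrays and differed by 0.05 (SE 0.35). Averaged over both probes, the difference was -0.18 with an unadjusted limma p of 0.46. Without Roquin san/+ E, the lowest array, it was -0.29 on the brighter probe, and the unadjusted limma p was above 0.05.

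Hif1a and Mtor did not separate the groups. The levels of Hif1a ran from -1.26 through -0.73 to 0.25 in Roquin san/+ and from -2.26 through -0.99 to -0.16 in wild-type, and wild-type C was the lowest and the displaced Roquin san/+ G the highest. The difference was 0.36 (SE 0.31, exact permutation p = 0.30). It was 0.15 without wild-type C, 0.21 without Roquin san/+ G and 0.25 without both displaced arrays. Mtor encodes the kinase of the nutrient-sensing mTOR complexes. Its levels ran from -7.40 through -4.70 to -4.20 in Roquin san/+ and from -5.65 through -4.57 to -4.37 in wild-type, on a probe well above background on 11 of 14 arrays and on neither displaced array, of which Roquin san/+ G gave the highest reading. The difference of -0.17 (SE 0.43, exact permutation p = 0.81) became -0.43 without both displaced arrays. With other single arrays left out it ran from -0.31 to -0.08, and it became 0.23 without Roquin san/+ C, which was the dimmest array, with a 75th percentile of 84.6 signal units beside 284 to 811 on the others.

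**Figure D2:**
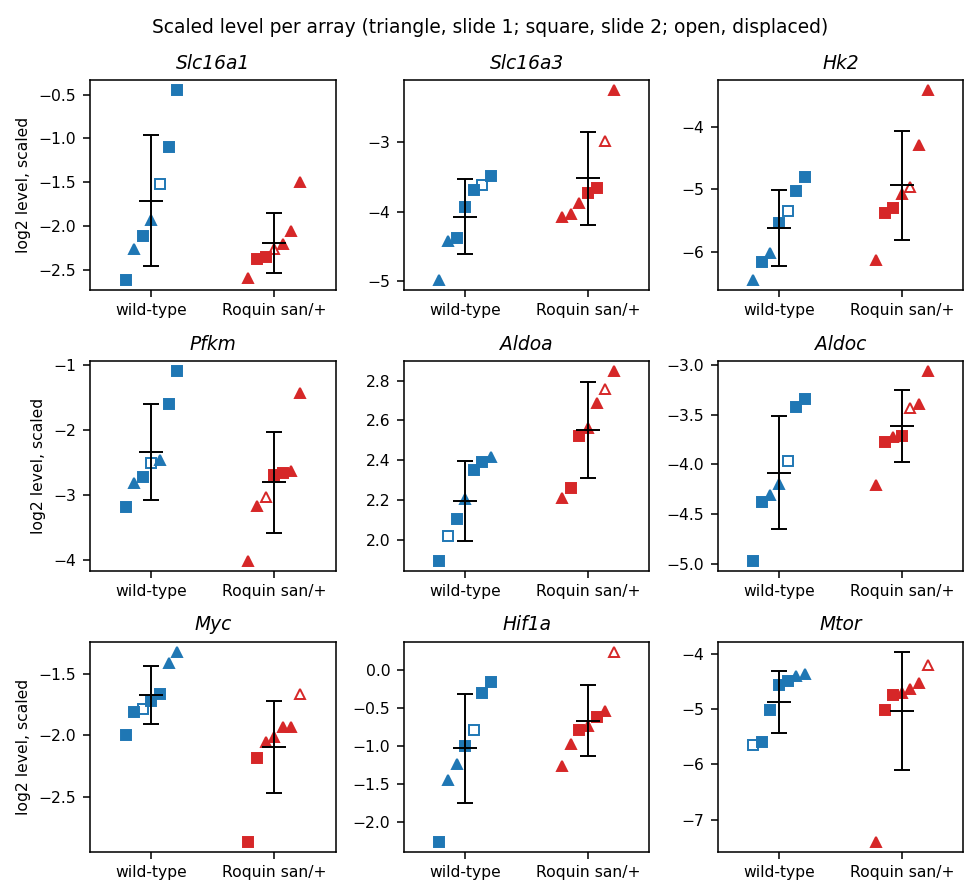
Scaled log2 level (y axis) on each of the 14 arrays for 9 members, by genotype (x axis). Bars are the mean and SD of 7 arrays, triangles are slide 1, squares are slide 2 and open symbols are the displaced arrays. The groups overlap in every panel, and Mtor on Roquin san/+ C, at -7.40, lies far below the other arrays of its group.

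The difference had opposite signs on the 2 slides for 18 of 33 members, 54.5%, beside 68.8% of all probes and 64.6% of those well above background on every array. Within the triose to pyruvate steps the signs differed for Eno1 (-0.17 on slide 1, 0.31 on slide 2) and Pkm (-0.09 and 0.43), and both lactate dehydrogenase subunits and both bifunctional enzymes also changed sign. The other 15 members had the same sign on both slides. Myc, Slc16a1, Pfkm and Pdha1 were below 0 on both, and Aldoa, Aldoc, Hk2, Slc16a3, Gapdh, Tpi1, Pgk1, Pgam1, G6pdx, Pgd and Hif1a were above 0 on both. Slide 1 compared 5 arrays with 2 and held Roquin san/+ F, and slide 2 compared 2 with 5 and held wild-type C. The part of slide in these differences was not tested apart from the block.

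The variation between arrays of one genotype was shared by groups of members. Roquin san/+ F was the highest of the 14 arrays for 12 of the 33 members, and for 9.01% of all probes. These 12 were the transporters Slc2a1, Slc2a3 and Slc16a3, the enzymes Hk2, Gpi1, Aldoa and Aldoc, Pfkfb4, and the pentose phosphate enzymes G6pdx, Pgd, Pgls and Taldo1. The same array was the lowest for 3 of the 33 members, Pfkm, Ldhb and Pdk1. It was the lowest for 5.44% of all probes and 9.50% of those well above background on every array. It was also the array with the highest B-cell, myeloid, natural killer cell, erythroid and platelet genes, and the part of those cells in the members' levels was not tested.

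**Figure D3:**
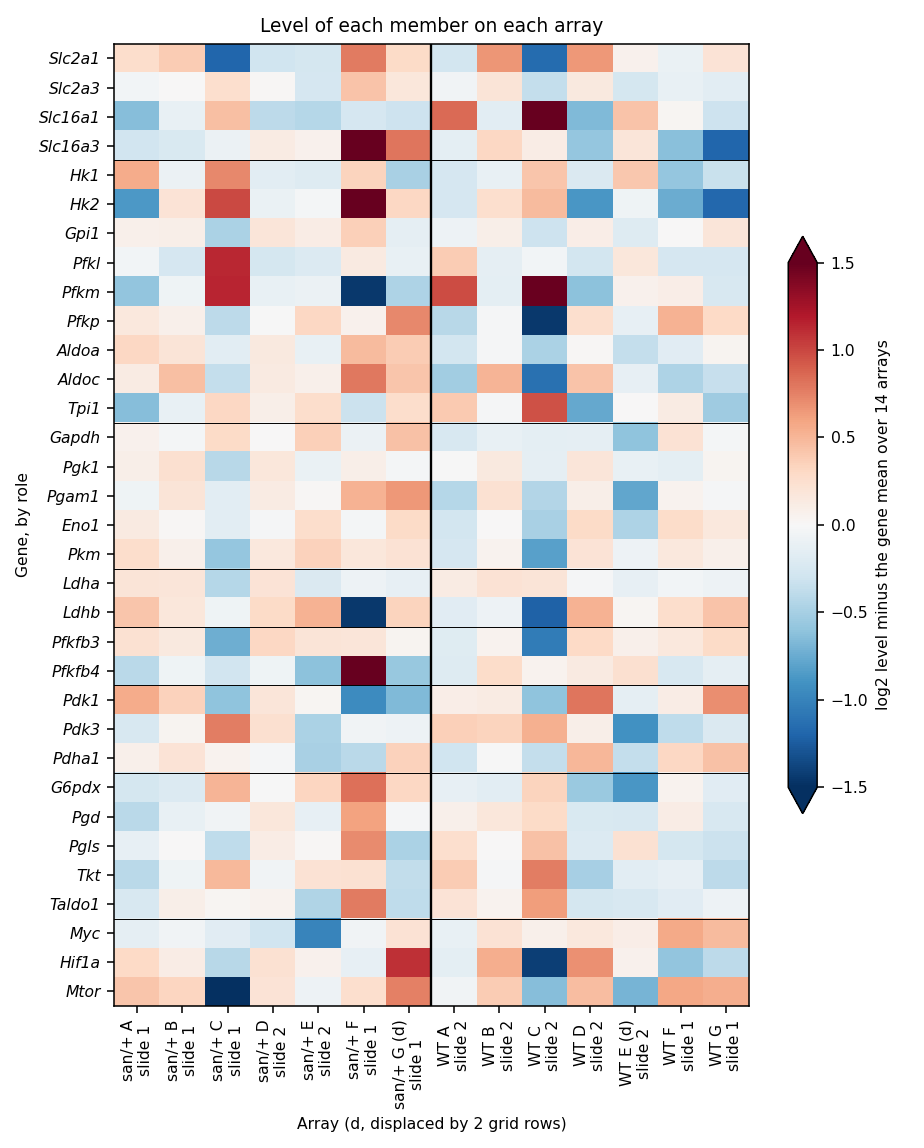
Level of each of the 33 members (rows, by role) on each of the 14 arrays (columns, by genotype and slide), as the log2 level minus the gene's mean over the arrays. Colours stop at 1.5 either way. Roquin san/+ F, Roquin san/+ C and wild-type C hold most of the strong colours, in both directions.

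A second pattern ran across the genotypes with the genes of cell division. Wild-type C, Roquin san/+ C and wild-type A had the highest mean levels of the proliferation genes Mki67, Top2a, Ccnb1, Cdk1 and Birc5, at -0.11, -0.53 and -0.91, while the other 11 arrays lay between -3.69 and -2.01. These 3 arrays were also the 3 highest for 5 members, Slc16a1, Pfkm, Tpi1, Pdk3 and Tkt, which is 15.2% of the members beside 4.47% of all probes and 4.78% of those well above background on every array. They were the 3 lowest for Pfkp, Pkm and Pfkfb3, 9.09% of the members beside 1.95% and 4.63%. On wild-type C the level of Slc16a1 was -0.45 and that of Pfkm -1.09, and on the displaced and other arrays outside the 3 they did not exceed -1.52 and -2.47. For Tpi1 and Pdk3 the ranks were narrow. Tpi1 stood at -0.82 on Roquin san/+ C beside -0.86 on Roquin san/+ G. Pdk3 stood at -2.79 on wild-type A beside -2.82 on wild-type B. The pattern was chosen after the values were seen and has no test. Roquin san/+ C was by itself the highest array for 36.8% of all probes and the lowest for 10.7%, and for 19.7% and 21.8% of those well above background on every array. For wild-type C these last shares were 16.9% and 27.2%. The mean of the T-cell genes was 0.93 on wild-type C, 1.16 on Roquin san/+ C and 1.78 on wild-type A, beside medians of 1.91 in wild-type and 1.98 in Roquin san/+. The mean of the plasma cell genes was -0.82, -0.14 and -1.75 on the same arrays, beside medians of -1.75 and -1.16, and Roquin san/+ C was the highest of the 14. Erythroid genes had mean levels of 0.43, -0.68 and -0.40 on the 3 arrays and 2.03 on Roquin san/+ F. The erythroid medians were -2.67 in wild-type and -3.05 in Roquin san/+. Platelet genes had mean levels of -4.86, -4.82 and -5.52 on the 3 arrays and -2.99 on Roquin san/+ F. Their medians were -6.41 in wild-type and -6.07 in Roquin san/+. The part of these genes in the pattern was not tested.

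**Figure D4:**
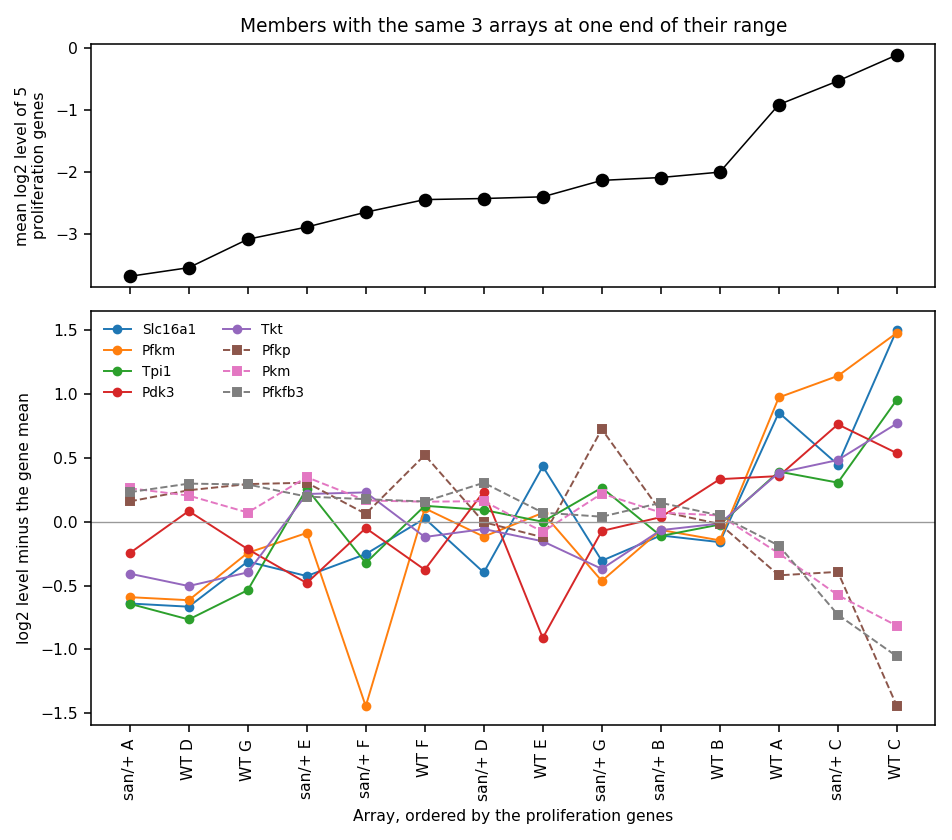
Upper panel, mean log2 level of 5 proliferation genes on each array, ordered from low to high. Lower panel, log2 level minus the gene mean for 5 members highest (circles) and 3 members lowest (squares) on wild-type A, Roquin san/+ C and wild-type C. These 3 arrays sit at -0.91 or above in the upper panel, and the members part in both directions there.

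The promoters shown are those of the 5 members picked because these 3 arrays were their highest. Their shared pattern is the rule by which they were picked and not a result. They are the 250 bases before the start of the first listed transcript, from RefSeq on GRCm38.p6, read 5′ to 3′. Capitals mark ACGTG on either strand, the core of the hypoxia response element that Hif1a binds, and CACGTG, the E-box that Myc binds, is a longer form that holds this core on both strands.
Slc16a1, chr3:104638414-104638663, plus strand: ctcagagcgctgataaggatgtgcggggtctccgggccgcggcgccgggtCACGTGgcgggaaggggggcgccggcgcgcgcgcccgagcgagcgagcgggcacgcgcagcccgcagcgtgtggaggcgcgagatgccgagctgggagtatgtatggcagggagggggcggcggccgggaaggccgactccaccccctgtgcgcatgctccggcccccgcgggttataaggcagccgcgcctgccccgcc
Pfkm, chr15:98092339-98092588, plus strand: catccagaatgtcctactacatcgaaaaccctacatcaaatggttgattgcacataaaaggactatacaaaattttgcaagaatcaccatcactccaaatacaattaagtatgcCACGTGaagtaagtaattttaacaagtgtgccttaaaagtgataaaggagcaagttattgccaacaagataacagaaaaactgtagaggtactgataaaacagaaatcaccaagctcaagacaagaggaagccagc
Pdk3, chrX:93832151-93832400, minus strand: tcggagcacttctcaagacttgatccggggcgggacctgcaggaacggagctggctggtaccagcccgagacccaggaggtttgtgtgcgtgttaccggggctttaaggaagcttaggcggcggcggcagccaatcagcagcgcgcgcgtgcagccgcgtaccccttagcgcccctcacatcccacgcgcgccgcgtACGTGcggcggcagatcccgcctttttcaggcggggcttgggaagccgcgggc
Tpi1, chr6:124814159-124814408, minus strand: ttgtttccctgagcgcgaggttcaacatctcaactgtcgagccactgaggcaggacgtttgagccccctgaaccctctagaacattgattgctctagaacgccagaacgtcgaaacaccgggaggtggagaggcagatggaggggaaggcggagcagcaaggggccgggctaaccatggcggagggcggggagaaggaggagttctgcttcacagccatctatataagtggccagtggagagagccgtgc
Tkt, chr14:30548881-30549130, plus strand: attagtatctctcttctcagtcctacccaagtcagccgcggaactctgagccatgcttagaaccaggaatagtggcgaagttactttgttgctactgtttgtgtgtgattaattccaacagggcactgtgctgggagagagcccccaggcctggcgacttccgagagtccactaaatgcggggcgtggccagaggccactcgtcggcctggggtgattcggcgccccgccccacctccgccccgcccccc
The Slc16a1 and Pfkm windows held CACGTG, the Pdk3 window held ACGTG alone, and the Tpi1 and Tkt windows held neither. Pfkm had 4 listed starts, of which start 1 is shown. The window of start 2 held ACGTG alone, and those of starts 3 and 4 held neither. Promoters were matched for 31 of the 33 members, all but Slc2a3 and Myc. ACGTG stood in at least 1 promoter of 13 of these 31 genes, 41.9%, beside 18.5% of all 27025 genes in the table. CACGTG stood in 5 of 31, 16.1%, beside 6.86% of all genes. A gene with more listed promoters has more chances of a match. Counted per promoter, ACGTG stood in 35.6% of the 45 member promoters beside 16.6% of all 32851. CACGTG stood in 11.1% beside 6.02%. A match describes the letters in the window, and none of these promoters had its binding measured here.

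The other genes of the same pathways were taken from fixed lists. Of 73 such genes, 63 were tested, with 29 differences above 0 and 34 below 0, a median of -0.04 and 0 past the adjusted threshold by limma. At an unadjusted p under 0.05 there was 1 gene, 1.59% of the 63 beside 3.23% of all probes. This was Pgam2, the muscle phosphoglycerate mutase, with levels from -5.52 through -5.10 to -3.23 in Roquin san/+ and from -6.99 through -5.94 to -5.14 in wild-type. The difference was 1.29 (SE 0.39), with an unadjusted limma p of 0.0049, an adjusted p of 0.88 and an unadjusted exact permutation p of 0.0064, and it was 2.23 on slide 1, 0.43 on slide 2 and 1.15 without Roquin san/+ F. The probe was well above background on 12 arrays, and without both displaced arrays the difference was 1.498. Slc16a7, the lactate carrier MCT2, differed by 0.99 (SE 0.68, exact permutation p = 0.20). It differed by 1.92 on slide 1 and -0.37 on slide 2, and its probe was well above background on 12 arrays. Without both displaced arrays its difference was 1.19. None of 10 tested genes of pyruvate entry, 7 of the pentose phosphate pathway and 21 regulators such as Vhl, Arnt, Max and Txnip reached an unadjusted limma p under 0.05.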

How the data were processed

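Total RNA of CD4+ T-cells was labelled with Cy3 and hybridised to 14 Agilent mouse arrays. The authors deposited the scanner tables of Agilent Feature Extraction 10.5.1.1, per the labels, with a background-subtracted intensity for each spot, and a table of log2 values per probe, which was used as an alternative. Probe coordinates in the files are of mm9. On each array, 169 shifts of the grid were tried and compared with the median over all 14 arrays. For 2 arrays a move by 2 rows raised this correlation to 0.89 and 0.91 from 0.01 each. The other 12 arrays correlated best without a move. The log2 intensity was averaged over the spots of a probe and scaled to the 75th percentile of each array, read from the 10320 probes that every array measured well above background. Probes well above background on at least 6 of the 12 well-placed arrays were tested (32831 of 56605) with limma 3.58.1 in R 4.3.3, genotype as the only term, two-sided, with Benjamini-Hochberg adjustment over all of them. A gene was read from its tested probe with the highest mean. The model was tested on simulated data. Members, lists and rules were chosen with earlier results of these data known. Full levels are given for members with an unadjusted p under 0.05, the 5 largest differences and Myc, Hif1a and Mtor, with a two-sided exact permutation test over the arrays. Marker lists covered T-cell, CD8, B-cell, plasma cell, myeloid, natural killer cell, erythroid, platelet and proliferation genes. The number of arrays limits the precision. Other background corrections, scalings, filters, slide and replicate blocks and left-out arrays were tried. One result on another gene of these pathways is not reported here.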

Additional observations from a re-analysis of the deposited data

Results flagged for a closer look

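For each of the 33 members the highest and lowest array of each genotype was compared with the others by Dixon's criterion, 66 groups of 7 arrays in all, of which chance would mark about 1 in 20. There were 9 cases, on 4 arrays, in which an array lay far from the rest of its group for a member. Roquin san/+ C was low for Pkm (0.74, the others 1.38 to 1.66), Pfkfb3 (-2.99, the others -2.22 to -1.96) and Mtor (-7.40, the others -5.03 to -4.20) and high for Pfkl (-0.98, the others -2.37 to -1.97). Roquin san/+ F was low for Ldhb (-3.45, the others -2.07 to -1.48) and high for Pfkfb4 (-1.59, the others -4.08 to -3.52). Wild-type C was low for Ldhb (-3.21, the others -2.17 to -1.49) and Pfkfb3 (-3.31, the others -2.45 to -1.96). Roquin san/+ E was low for Myc (-2.87, the others -2.18 to -1.67).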

How the results depend on the processing

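By limma, 0 probes, 0 members and 0 of the other pathway genes passed the adjusted threshold under every alternative that was run, while between 117 and 3150 probes had an unadjusted p under 0.05. The count of members at an unadjusted p under 0.05 was 2 as reported and 4 after normexp background correction. It was 1 with slide as a block, on slide 1 alone, on slide 2 alone, without both displaced arrays, without the array on which Xist was well above background (Roquin san/+ E), with the mean of a gene's probes and, in settings chosen after the data were seen, without the displaced arrays and Roquin san/+ F together and with slide as a block without Roquin san/+ F. It was 0 without the filter on dim probes and 0 with the probe names as deposited, which left the 2 displaced arrays in error. With single arrays left out it ranged from 0 to 4, with 0 without Roquin san/+ D, 4 without Roquin san/+ C, and 1 without Roquin san/+ E or G or wild-type A, E, F or G. The members' median of 0.06 became -0.11 with the 75th percentile over all probes. Mtor reversed to 0.23 after normexp correction, 0.17 on slide 2 and 0.23 without Roquin san/+ C, in a range of -0.31 to 0.23 over single arrays left out. Aldoa kept its sign throughout, between 0.14 and 0.41, as did Myc, between -0.73 and -0.18. The cause of these changes was not tested. With the filter requiring all 7 arrays of a genotype 31 members were tested, and with all 12 well-placed arrays 32. The array letters were not taken as a pairing. Arrays of the same letter gave correlations of -0.28 to 0.41. Arrays of different letters were not compared, so these values cannot settle whether the letters pair the arrays. With a replicate block on the letter 2 members had an unadjusted limma p under 0.05 and 0 probes passed the adjustment. Dim probes sat at a floor on the displaced arrays, at -5.88 on Roquin san/+ G and -5.67 on wild-type E. Mtor lay near it on wild-type E, at -5.65, and well above it on Roquin san/+ G, at -4.20. Hk2 lay above it on both, at -4.97 on Roquin san/+ G and -5.35 on wild-type E.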

Other observations

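Of the 33 members, 24 had more than 1 tested probe, and all of these probes had the same sign of difference for 13 genes and not for 11. The 6 Gapdh probes ran from -0.20 to 0.37, with 5 above 0. The 5 Pdk1 probes ran from -0.47 to 0.39, with 4 below 0. The 5 Pfkp probes lay between 0.27 and 0.51, all above 0, and the 4 Gpi1 probes between 0.06 and 0.20. The members on the X chromosome were Pgk1, Pdk3, Pdha1 and G6pdx.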
